A study of Mus musculus with 15 samples.

Results

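The glutathione S-transferases (Gst), UDP-glucuronosyltransferases (Ugt) and sulfotransferases (Sult) were described in mouse liver by 49 of the 22690 probe sets on an Affymetrix array. They were taken by annotated symbol: Gsta, Gstk, Gstm, Gsto, Gstp, Gstt or Gstz with a number, Ugt1 or Ugt2 genes, and Sult with a number. The Gst family had 26 probe sets, the Ugt family 11 and the Sult family 12. Among them, 44 probe sets belonged to 1 gene each, and they covered 35 of the 62 protein-coding genes that RefSeq lists for these families. The other 5 probe sets were shared. Of these, 3 read the Ugt1a cluster, 1 read Ugt2a1 and Ugt2a2, and 1 read Gsta1, Gsta2 and Gm3776. All 49 were tested, and each reached a signal of 16 on at least 1 array.

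Liver RNA came from 15 mice labelled as males of 3 months, in 5 groups of 3 biological replicates with 1 array each. Z4 mice expressed human alpha1-antitrypsin of the mutant Z form, without doxycycline. Z1 mice were of the same line given doxycycline to drink from conception (40 µg per mL), which shut expression off. M4 mice expressed the wild type M form, without doxycycline, and M1 mice were that line with the same doxycycline treatment. WT mice were littermates without the transgene and without doxycycline. The transgene was active in hepatocytes only, by the labels. Alpha1-antitrypsin is a secreted inhibitor of proteases made mainly by hepatocytes, and its Z form folds poorly and builds up inside the cell. The promoter, and whether each line was 1 founder, are not given in the sources used here, and the human transgene itself was not analysed here. Because the members of each on-off pair differed in both expression and doxycycline, these factors cannot be told apart in Z4 minus Z1 or M4 minus M1. Z1 and M1 mice differ from WT mice in both the transgene line and doxycycline, which likewise cannot be told apart.

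Conjugating enzymes carry out the second phase of detoxification, in which a polar group is joined to a drug, hormone, bile pigment or reactive by-product so that it can leave the cell. Gst enzymes attach glutathione to electrophiles such as epoxides and lipid peroxidation products. Ugt enzymes sit in the membrane of the endoplasmic reticulum and attach glucuronic acid, and Sult enzymes of the cytosol attach a sulfonate group from the donor PAPS. Hepatocytes are the main site of all 3 reactions, and many of these genes respond to the nuclear receptors CAR and PXR, to the factor NRF2 and to the sex-dependent pattern of growth hormone. In mouse liver, Sult2a genes and Sult3a1 are known for higher expression in females, and Gstp1, Ugt2b1 and Ugt2b38 for higher expression in males.

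The deposited values are linear signals, tested here as log2(signal + 16) with limma. A probe set was called where the Benjamini-Hochberg adjusted p over 22626 probe sets was under 0.05. The added constant shrinks the change of dim probe sets. Signals of different probe sets were not compared with each other. Hepatocyte markers were bright on every array, with albumin (Alb) at 7215.2 to 7779 in Z4, 8416.1 to 9642.3 in Z1, 6729.3 to 9160 in M4, 8441 to 9270.5 in M1 and 12758.3 to 15836.6 in WT. The groups also differed in technical signals. The poly-A controls had medians of 2 to 2.3 in Z4 and 3.7 to 5.2 in M4, against 45.9 to 48.3 in Z1, 42.6 to 57.9 in M1 and 33.8 to 37.6 in WT. The 18S ribosomal RNA control read 1879.9 to 2666 in Z4 and 1830 to 2680.7 in M4. It read 165.6 to 568.1 in Z1, 154.4 to 442 in M1 and 75 to 285.8 in WT. The median over all probe sets shifted by 0.21 log2 units in Z4 minus Z1 and 0.23 in M4 minus M1. It shifted by -0.16 in Z1 minus WT and -0.17 in M1 minus WT. In Z4 minus WT and M4 minus WT, where the poly-A controls also differed, it shifted by 0.05 each. Several bright hepatocyte genes fell there all the same. Alb changed by -0.89 and -0.85 in these comparisons and Apoa1 by -1.03 and -0.81, all called. After quantile normalization the changes were 0.06 and -0.06 for Alb and -0.03 and 0.14 for Apoa1, none called. Tat, G6pc and Hnf4a were called in neither comparison. The part of these technical differences in the results was not tested.

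The M4 arrays were not alike. Xist, the X-inactivation RNA of females, was at 1149.2, 226 and 32.6 on M4 arrays 1, 2 and 3, against at most 74.3 on the other 12. Eif2s3y, a Y-linked gene, was at 0.4, 1.3 and 42.1 on the M4 arrays, against at least 105.3 on the others. Cyp2b9, a female-predominant cytochrome P450, was at 1984.2, 2470.3 and 29.1 on the M4 arrays, 127.2 to 172.9 on the Z4 arrays and at most 33.7 elsewhere. The libraries labelled M4 1 and M4 2 therefore went against the labelled male sex. Of 14 measured female-type liver genes, 12 rose and 0 fell in M4 minus M1, and of 14 male-type genes 1 rose and 8 fell. Among all probe sets, 33.2% were called higher and 13.4% lower in that comparison. Called M4 changes are given below also without arrays M4 1 and M4 2, where array M4 3 alone stands for the group and is assumed to vary like the others. Array M4 3 also departed from the other groups, with its low Eif2s3y signal of 42.1. Its summed female-type signal was 868.9, against 289.9 to 405.2 in M1 and 392.7 to 974.5 in WT. Its summed male-type signal was 23800.9, against 24098.8 to 28387.8 in M1 and 23553 to 28343.8 in WT.

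Promoter windows of RefSeq (GRCm38.p6), holding the 250 bases before a gene's start, were matched for 31 of the 35 genes. They are shown for 5 genes: Gstp1 and Gstp3, which lie in 1 cluster on chromosome 19 and changed in opposite directions, Gsta2, which was above WT in all 4 other groups, and Sult3a1 and Ugt2b38, which lay far from the other arrays, in opposite directions, on the same M4 arrays. Each is written 5′ to 3′ on the strand of its gene.
Gstp1 (chr19:4037913-4038162, minus strand): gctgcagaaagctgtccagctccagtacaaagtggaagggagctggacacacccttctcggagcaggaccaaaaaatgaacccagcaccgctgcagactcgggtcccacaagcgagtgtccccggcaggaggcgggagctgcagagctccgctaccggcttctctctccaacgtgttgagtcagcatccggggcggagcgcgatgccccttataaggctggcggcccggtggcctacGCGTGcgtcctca
Gstp3 (chr19:4059448-4059697, minus strand): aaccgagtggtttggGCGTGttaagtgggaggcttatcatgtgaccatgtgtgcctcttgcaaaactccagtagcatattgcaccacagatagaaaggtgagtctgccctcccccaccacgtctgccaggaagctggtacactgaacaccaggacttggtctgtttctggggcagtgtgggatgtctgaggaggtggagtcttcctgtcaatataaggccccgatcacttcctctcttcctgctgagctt
Gsta2 (chr9:78347146-78347395, minus strand): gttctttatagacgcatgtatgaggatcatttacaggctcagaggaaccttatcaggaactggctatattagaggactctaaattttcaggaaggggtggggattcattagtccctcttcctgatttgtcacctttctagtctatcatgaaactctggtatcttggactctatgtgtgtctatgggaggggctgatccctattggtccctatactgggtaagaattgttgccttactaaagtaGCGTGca
Sult3a1 (chr10:33857472-33857721, plus strand): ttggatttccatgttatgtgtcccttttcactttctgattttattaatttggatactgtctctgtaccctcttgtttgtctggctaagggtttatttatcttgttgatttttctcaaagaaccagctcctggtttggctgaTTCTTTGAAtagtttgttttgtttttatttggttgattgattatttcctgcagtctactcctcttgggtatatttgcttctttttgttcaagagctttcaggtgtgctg
Ugt2b38 (chr5:87424204-87424453, minus strand): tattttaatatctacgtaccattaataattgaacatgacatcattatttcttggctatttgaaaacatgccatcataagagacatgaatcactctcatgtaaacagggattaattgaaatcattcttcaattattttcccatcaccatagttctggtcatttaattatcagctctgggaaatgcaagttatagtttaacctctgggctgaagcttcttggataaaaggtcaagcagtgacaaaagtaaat
Capitals mark matches, on either strand, to 4 motifs, none of which contains another. They were the NRF2 motif TGACNNNGC, the STAT motif TTCNNNGAA, the AHR core GCGTG and GTTAAT, which is part of the longer site of the factor HNF1. Among all 32851 windows of this length, these letters occurred in 10.2%, 7.02%, 28.2% and 6.43%. Among the 31 member genes they occurred, in any window of the gene, in 3, 2, 8 and 4. Some member genes have several windows, so these counts per gene are not like the percents, which are per window. The marked letters are GCGTG in the Gstp1, Gstp3 and Gsta2 windows and a STAT motif match in the Sult3a1 window. The Ugt2b38 window holds none of the 4 sets of letters.

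Across 8 comparisons of 2 groups, 30 members were called at least once (16 Gst, 6 Ugt and 8 Sult) and 19 in none. The share of all probe sets called at least once is not given here. In Z4 minus Z1, 4 members rose and 6 fell, where 36.0% of all probe sets were called (27.9% higher and 8.14% lower). Gstp3, Gstm7, Gstm1 and Sult2b1 rose and Gstm3, Gsta3, Gstt1, Ugt2b38 and Ugt2a3 fell. After quantile normalization the split in this comparison was 6 higher and 3 lower, where 2988 of all probe sets were higher and 2843 lower, against 6314 and 1841 before. In M4 minus M1, 12 members rose and 8 fell, where 46.5% of all probe sets were called (33.2% higher and 13.4% lower). Without arrays M4 1 and M4 2 the counts were 7 and 4, with 34.1% of all probe sets called.

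**Figure D1:**
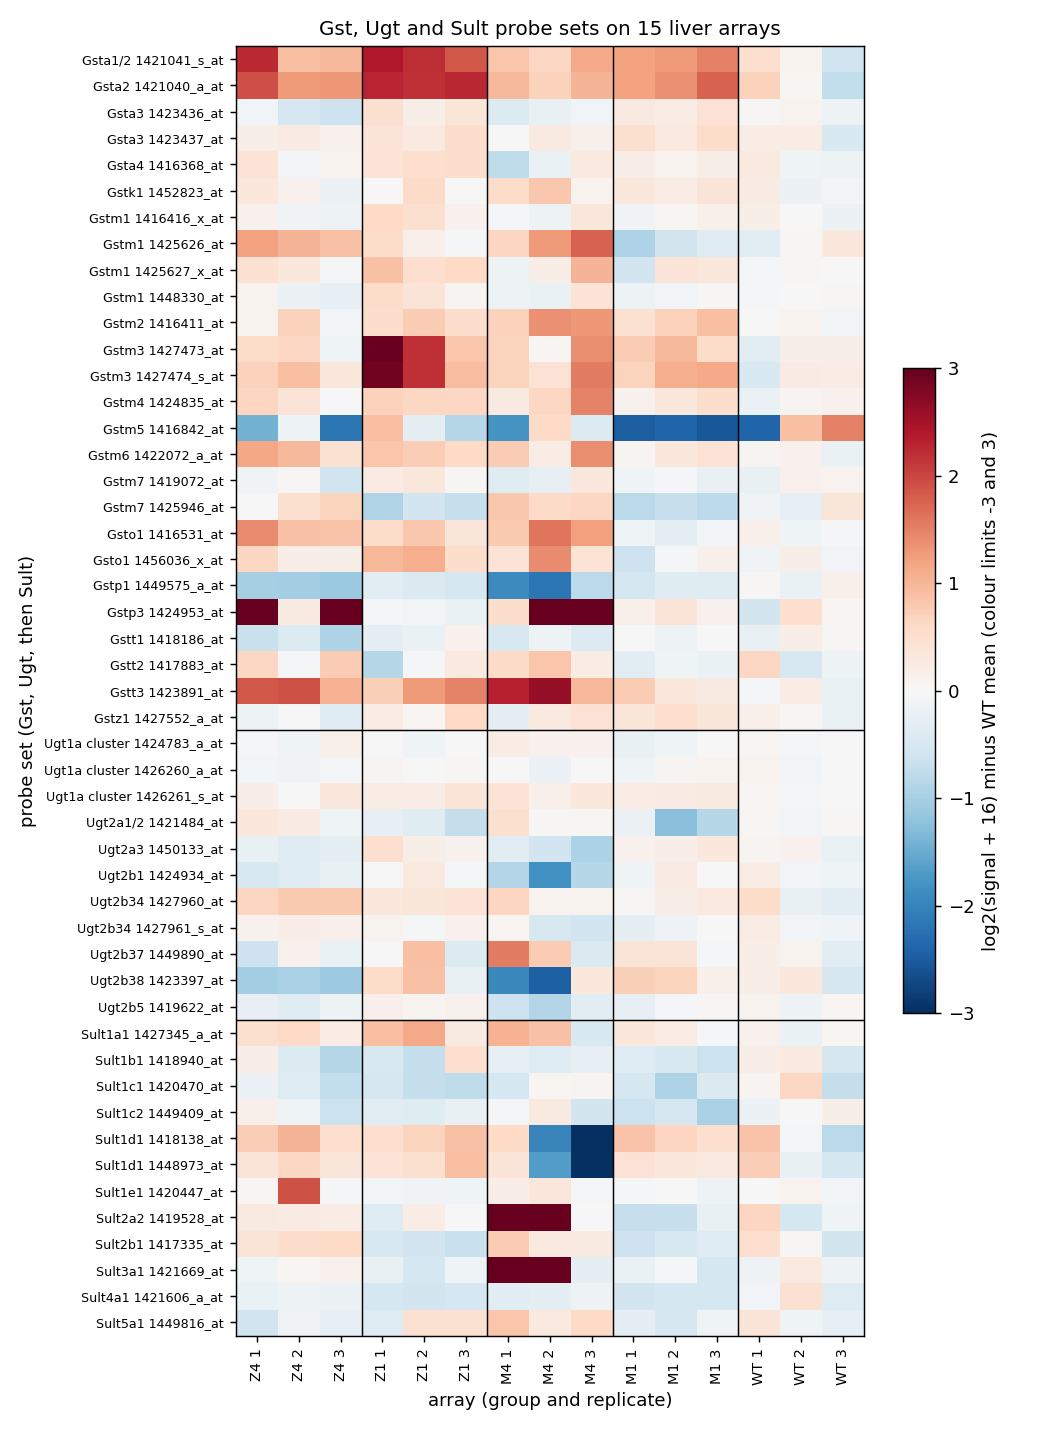
Difference of log2(signal + 16) from the WT mean for each of the 49 probe sets (rows, by family) on each of the 15 arrays (columns, by group and replicate); colours stop at -3 and 3. Gsta2 is above WT in all other groups, Gstp3 is high on 4 arrays, and Sult2a2 and Sult3a1 are high on arrays M4 1 and M4 2.

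Against WT, most calls were in the Gst family, which held 26 of the 49 members. Of its probe sets, 30.8% were called in Z4 minus WT, 38.5% in M4 minus WT and 26.9% in Z1 minus WT. In M1 minus WT it was 15.4%, below the share of all probe sets. In Z4 minus WT, 7 members rose and 2 fell, with 12.3% of all probe sets called (7.50% higher and 4.79% lower), and 8 of the 9 were Gst. In M4 minus WT, 11 rose and 4 fell, with 23.0% of all called (13.2% higher and 9.78% lower), and without arrays M4 1 and M4 2 the counts were 6 and 6, with 16.3% of all called. In Z1 minus WT, 6 members rose and 2 fell, where 21.4% of all probe sets were called (4.52% higher and 16.9% lower), and in M1 minus WT 3 rose and 4 fell, where 23.3% were called (4.54% higher and 18.8% lower). After quantile normalization, the members' counts here were 5 higher and 0 lower in Z1 minus WT, where 1413 of all probe sets were higher and 1483 lower, and 2 higher and 0 lower in M1 minus WT, where 1432 were higher and 1565 lower.
Between Z4 and M4 livers, which express the mutant and the wild type form, 1 member was called by limma. An unadjusted p under 0.05 was found for 11 members and for 4379 of all 22626 probe sets. After quantile normalization 1 member was higher and 2 lower, where 845 of all probe sets were higher and 412 lower. Gstm2 fell in Z4 minus M4, where 4.47% of all probe sets were called (3.36% higher and 1.11% lower), and without arrays M4 1 and M4 2 the counts were 4 higher and 2 lower, with 10.3% of all called. Between the lines on doxycycline (Z1 minus M1) 0 members were called by limma, against 0.0972% of all probe sets (0.0486% higher and 0.0486% lower), and 11 members had an unadjusted p under 0.05.

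**Figure D2:**
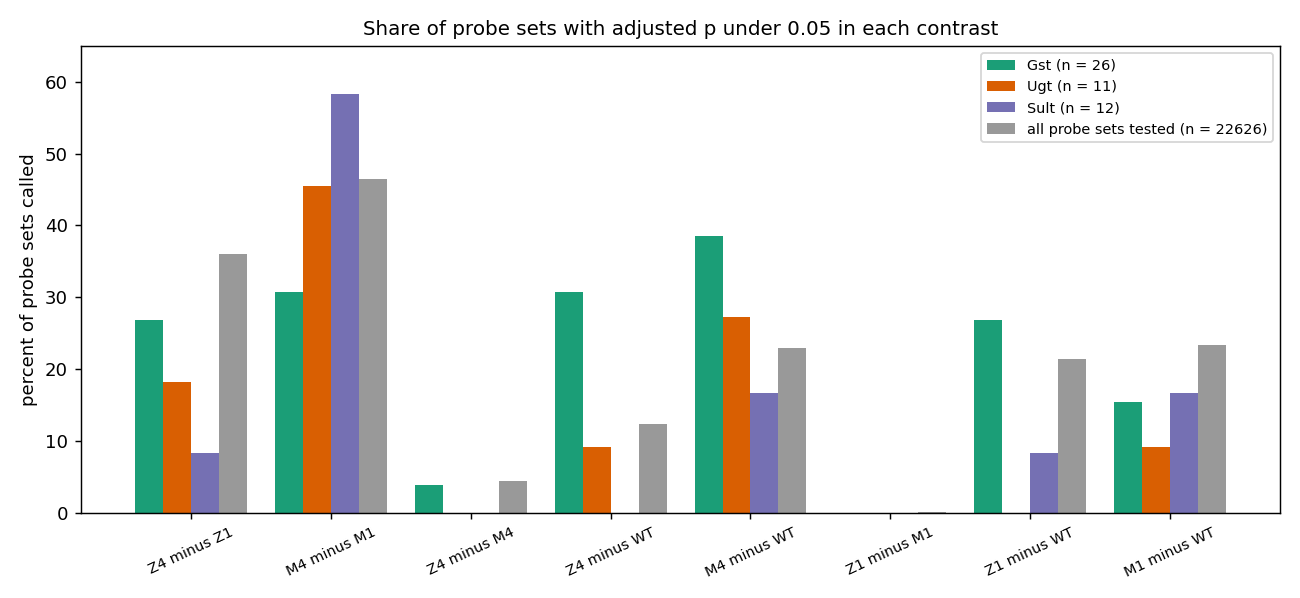
Percent of probe sets called (vertical axis) in each of 8 comparisons, for the Gst (26 probe sets), Ugt (11) and Sult (12) families and all 22626 probe sets. The Sult bar is the tallest in M4 minus M1, where 7 of 12 were called. The Gst bar is the tallest in Z4 minus WT, M4 minus WT and Z1 minus WT, but not in M1 minus WT.

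Within the Gst family, the alpha class acts on lipid peroxidation products and has peroxidase activity. Gsta2, of this class, had signals of 1747.2, 1099.6 and 1120.6 in Z4, 2207.3, 2068.7 and 2199.5 in Z1, 883.2, 721.3 and 911.2 in M4, 1048.3, 1168.1 and 1555.4 in M1, and 726.6, 460.2 and 258.8 in WT. Every array of Z4, Z1 and M1 lay above every WT array, and Z1 lay highest, while M4 overlapped WT through 1 array on each side. Gsta2 rose against WT by 1.51 log2 units in Z4 (SE 0.29, adjusted p = 0.0048), 2.24 in Z1 (SE 0.29, adjusted p = 0.000446), 0.89 in M4 (SE 0.29, adjusted p = 0.0404) and 1.45 in M1 (SE 0.29, adjusted p = 0.00342). The rise in Z1 was called in all 15 alternative settings, with changes of 1.87 to 2.59. The M4 call was lost in 10 of 17 settings, among them each that left out 1 M4 array or WT array 2 or 3, with changes of 0.52 to 1.23 and adjusted p up to 0.176.
The probe set shared by Gsta1, Gsta2 and Gm3776 gave the same order of groups. It averaged 927 ± 533 in Z4, 1483 ± 277 in Z1, 595.1 ± 109 in M4, 823 ± 97.3 in M1 and 332 ± 127 in WT (SD, n = 3 each). It rose against WT in Z4 (1.37), Z1 (2.16) and M1 (1.33), and the M4 change of 0.87 was not called. Without WT array 3 the Z4 and M1 calls were lost, as was the Z4 call without Z4 array 1 (adjusted p up to 0.0924 in Z4 and 0.0517 in M1).
Gsta3, which in mice detoxifies aflatoxin epoxide, fell in both on-off comparisons by 1 of its probe sets. With 1423436_at it averaged 2746 ± 557 in Z4 against 4577 ± 455 in Z1, and 3084 ± 349 in M4 against 4490 ± 351 in M1 (SD, n = 3 each). Neither pair of groups overlapped. The changes were -0.75 (SE 0.16, adjusted p = 0.0022) and -0.54 (SE 0.16, adjusted p = 0.011). The call in Z4 minus Z1 was made in all 15 settings, and without arrays M4 1 and M4 2 the M4 minus M1 change was -0.39 (adjusted p = 0.192). A second Gsta3 probe set, 1423437_at, gave -0.23 and -0.31 and was not called. Gsta4, which conjugates the lipid peroxidation product hydroxynonenal, was called in no comparison. Its signal ranged from 369.2 on array M4 1 to 936.4 on array Z1 3.

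The mu class genes, all 7 of which lie in 1 cluster on chromosome 3, conjugate epoxides and quinones. Gstm3 had its highest mean in Z1 livers. Its probe set 1427474_s_at read 597.5, 693.4 and 466.3 in Z4, 2834.5, 1736.5 and 708.2 in Z1, 584.7, 495.9 and 1098.9 in M4, 584.7, 790 and 819.7 in M1, and 261.4, 435.3 and 426.1 in WT. The Z1 arrays spread widely, and the lowest of them was just above the highest Z4 array. Gstm3 fell in Z4 minus Z1 by 1.37 (SE 0.41, adjusted p = 0.0188) and, by probe set 1427473_at, by 1.65 (SE 0.44, adjusted p = 0.00977). Gstm3 rose in Z1 minus WT by 2.01 (SE 0.41, adjusted p = 0.00464) and 1.99 (SE 0.44, adjusted p = 0.00664) with the same probe sets, and these calls were made in all settings run. Without array Z1 1 the Z4 minus Z1 calls were lost by both probe sets (adjusted p up to 0.0961), and 1427474_s_at also lost it without Z1 2 or Z4 3.
The 4 probe sets of Gstm1 disagreed. Probe set 1425626_at read 408, 358 and 325.1 in Z4, 254.1, 189.2 and 161.2 in Z1, 274.3, 434.4 and 613.8 in M4, 81, 109.3 and 125.2 in M1, and 129.4, 173.7 and 212.7 in WT. Neither Z4 nor M4 overlapped its doxycycline-treated counterpart or WT. By this probe set Gstm1 rose in Z4 minus Z1 (0.82, SE 0.26, adjusted p = 0.0253), M4 minus M1 (1.86, SE 0.26, adjusted p = 8.72e-05), Z4 minus WT (1.03, adjusted p = 0.0205) and M4 minus WT (1.24, adjusted p = 0.0049). Without arrays M4 1 and M4 2 the M4 changes were 2.40 against M1 and 1.77 against WT, both called. The M4 minus M1 call was made in all 16 settings. The Z4 minus Z1 call was lost without Z1 2, Z1 3, Z4 1 or Z4 2 (adjusted p up to 0.0942), and the Z4 minus WT call without Z4 1, Z4 2, WT 1 or WT 2 (adjusted p up to 0.0754).
The other Gstm1 probe sets did not follow it. Probe sets 1416416_x_at, 1425627_x_at and 1448330_at gave -0.44, -0.42 and -0.44 in Z4 minus Z1 and 0.01, 0.31 and 0.09 in M4 minus M1, and none was called in any comparison. Probe set 1448330_at, for example, averaged 3889 ± 523 in Z4, 5309 ± 842 in Z1, 4297 ± 1053 in M4, 3966 ± 284 in M1 and 4151 ± 103 in WT (SD, n = 3 each). Mu class genes are close in sequence, and the share of signal that a probe set took from a neighbour was not tested.
Gstm7 also split by probe set. With 1425946_at it rose in Z4 minus Z1 to 73.9 ± 20.0 in Z4 against 25.1 ± 4.78 in Z1, and in M4 minus M1 to 91.7 ± 9.72 in M4 against 23.5 ± 1.81 in M1 (SD, n = 3 each). The changes were 1.11 (SE 0.19, adjusted p = 0.000537) and 1.44 (SE 0.19, adjusted p = 4.92e-05), and both calls were made in all settings run. Without arrays M4 1 and M4 2 the M4 minus M1 change was 1.39. WT arrays, at 46.3, 40.4 and 71.1, lay above all Z1 and M1 arrays and below all M4 arrays, and overlapped the Z4 arrays, of which the lowest was 52.3. Gstm7 thus fell against WT in Z1 (-0.72, adjusted p = 0.0156) and M1 (-0.77, adjusted p = 0.0101) and rose in M4 (0.67, adjusted p = 0.0198). After quantile normalization the falls were not called. The Z1 fall was also lost without Z1 1 or WT 3 (adjusted p up to 0.156). The rise in M4 was lost without M4 1, WT 1 or WT 2, and was 0.62 (adjusted p = 0.15) without both M4 1 and M4 2. The brighter Gstm7 probe set, 1419072_at, gave -0.43 and 0.05 in the on-off comparisons and was not called.
Gstm2 was the member called between the expressing lines. It read 285.8, 432.5 and 248.7 in Z4, 434.6, 707.6 and 675.5 in M4, and 260.6, 284.6 and 246.1 in WT. The highest Z4 array was close to the lowest M4 array. Gstm2 fell by 0.88 in Z4 minus M4 (SE 0.21, adjusted p = 0.0345) and rose by 1.12 in M4 minus WT (SE 0.21, adjusted p = 0.0027). Without arrays M4 1 and M4 2 these were -1.07 (adjusted p = 0.0241) and 1.31 (adjusted p = 0.00631). The Z4 minus M4 call was lost without Z4 1, Z4 3, M4 2 or M4 3, with changes of -1.11 to -0.45 over all settings. In M1 minus WT Gstm2 rose by 0.68 (adjusted p = 0.0334), which was lost without M1 2, M1 3 or any 1 WT array.
Gstm4 and Gstm6 rose in M4 minus WT by 0.80 each, and Gstm6 rose in Z4 minus WT by 0.87 (adjusted p = 0.0365). With arrays M4 1 and M4 2 left out the M4 rises were 1.50 for Gstm4 and 1.40 for Gstm6, both called. The Gstm6 calls were lost with most single arrays left out (adjusted p up to 0.13 in Z4 and 0.163 in M4), and so was that of Gstm4 (adjusted p up to 0.532). Gstm5 varied more within groups than between them. It read 395.7, 984 and 231.5 in Z4, 2061.6, 894.3 and 596 in Z1, 310.3, 1647.8 and 813.7 in M4, 184, 193.8 and 173.1 in M1, and 193.2, 2054.9 and 3126.9 in WT. Only M1 was uniform, and Gstm5 was called in no comparison (M4 minus M1 1.94, SE 0.87, adjusted p = 0.0810).

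**Figure D3:**
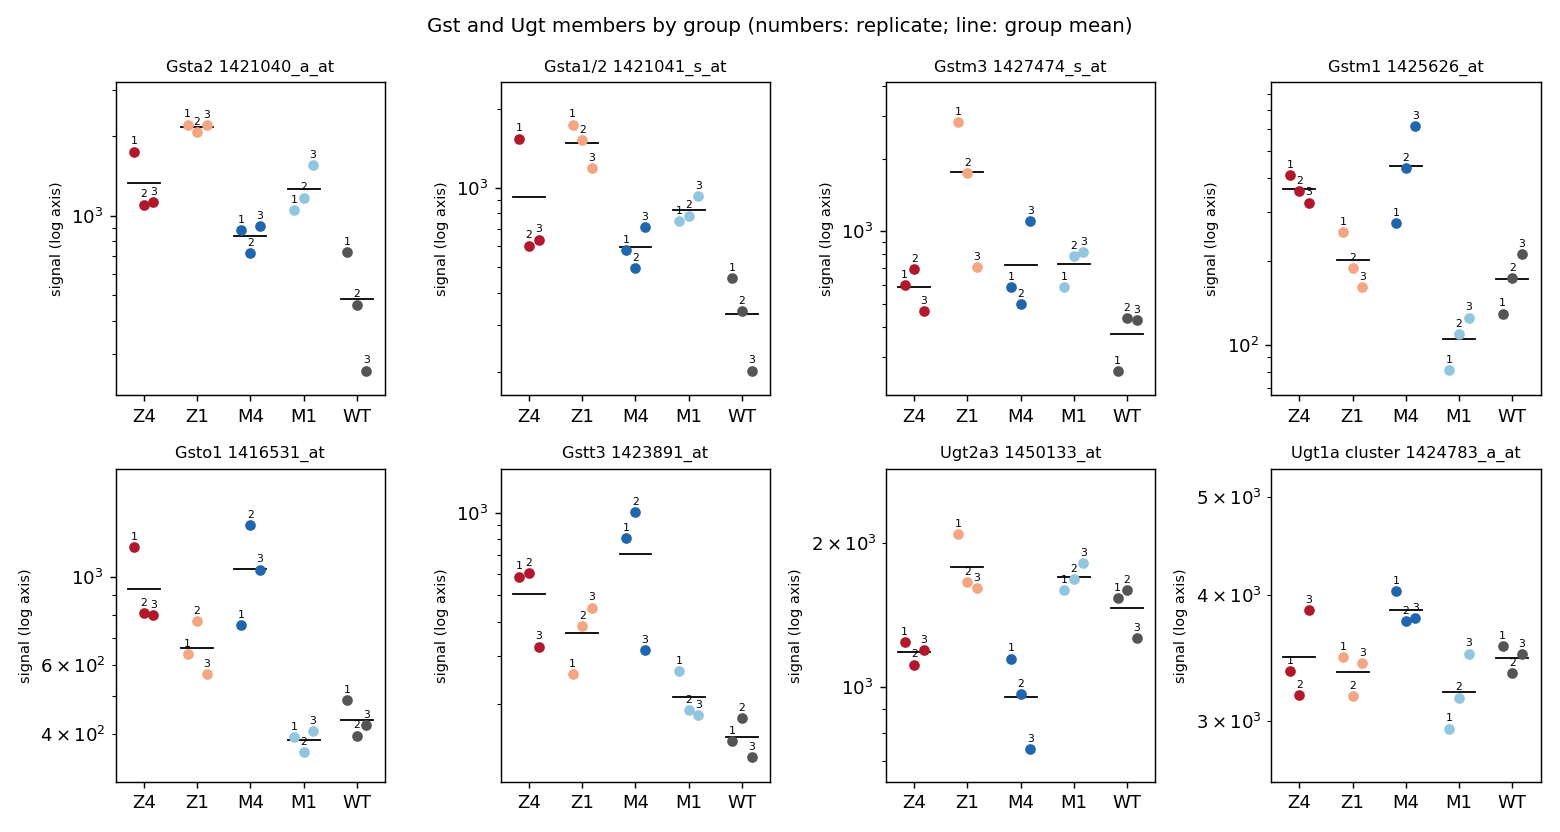
Signal on a log axis for 8 probe sets of Gst and Ugt genes in Z4, Z1, M4, M1 and WT; points are arrays with their replicate number and lines are group means. Gsta2 lies highest in Z1, Gstm1 (1425626_at) lies higher in Z4 and M4 than in Z1, M1 and WT, and the Ugt1a cluster spans 2949.8 to 4037.7 over all arrays.

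The pi class genes moved in opposite directions. Gstp1, which inactivates electrophiles and drug metabolites, read 5991.4, 5861.7 and 5528.3 in Z4, 9670.1, 8799.4 and 8346.3 in Z1, 3188.7, 2668.7 and 6834.5 in M4, 8228, 9349 and 9337.7 in M1, and 12317.5, 10462.9 and 13264.1 in WT. All 3 arrays of each expressing group lay below all arrays of the doxycycline-treated groups and WT, and M4 1 and M4 2 lay lowest. Gstp1 fell in Z4 minus WT by 1.04 (SE 0.25, adjusted p = 0.0168), M4 minus WT by 1.62 (SE 0.25, adjusted p = 0.00094) and M4 minus M1 by 1.21 (SE 0.25, adjusted p = 0.00161). The change of -0.62 in Z4 minus Z1 was not called (adjusted p = 0.0699). With arrays M4 1 and M4 2 left out, M4 minus WT was -0.81 (adjusted p = 0.00823) and M4 minus M1 was -0.39 (adjusted p = 0.104). The Z4 minus WT call was lost without Z4 3 or WT 3 and after quantile normalization, where the change was -0.27 (adjusted p = 0.62). Alb, a bright hepatocyte gene, changed by -0.85 in M4 minus WT with all arrays, and by -0.06 after quantile normalization. The part of scaling in the Gstp1 changes against WT was not tested.
Gstp3, a second pi class gene, was high on 4 arrays of the expressing mice. Its signals were 2998.2, 184.6 and 4056.2 in Z4, 146, 141.3 and 127.7 in Z1, 222.4, 3067.4 and 3398.3 in M4, 169.2, 200 and 164.5 in M1, and 97.4, 217 and 155.3 in WT. Array Z4 2 lay within the range of Z1, M1 and WT and array M4 1 just above it, so each expressing group held 2 high arrays and 1 low one. Gstp3 rose by 3.13 in Z4 minus Z1 (SE 1.02, adjusted p = 0.0283), 2.81 in M4 minus M1 (SE 1.02, adjusted p = 0.0365) and 3.04 in M4 minus WT (SE 1.02, adjusted p = 0.0461). The change of 3.03 in Z4 minus WT was not called. These calls were lost in 6 of 15, 10 of 17 and 12 of 17 settings. The Z4 minus Z1 call was lost without Z4 1, Z4 3 or any 1 Z1 array (adjusted p up to 0.128). The M4 calls were lost without M4 2, M4 3 or any 1 M1 or WT array, and without both M4 2 and M4 3 the M4 minus M1 change was 0.30 (adjusted p = 0.873). Without M4 1 and M4 2 it was 4.14 (adjusted p = 0.0179), and M4 minus WT was 4.37 (adjusted p = 0.0254). The high Gstp3 arrays M4 2 and M4 3 were not the pair with the female-type signals.

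Of the other Gst classes, omega and theta held called members. Gsto1, a thiol transferase of the omega class that also reduces dehydroascorbate, read 1191.5, 808.3 and 801.1 in Z4, 638.9, 771.8 and 566.8 in Z1, 755.8, 1351.2 and 1044.1 in M4, 392.9, 359.8 and 407.8 in M1, and 487.5, 396.5 and 422.2 in WT with probe set 1416531_at. The lowest array of Z4 and of M4 lay above every M1 and WT array. Gsto1 rose in M4 minus M1 by 1.37 (SE 0.21, adjusted p = 0.000148), in M4 minus WT by 1.21 (SE 0.21, adjusted p = 0.00157) and in Z4 minus WT by 1.05 (SE 0.21, adjusted p = 0.00545). With M4 3 as the only M4 array the M4 changes were 1.40 and 1.24, both called, and without M4 2 and M4 3 the change against WT was 0.78 (adjusted p = 0.0632). Its other probe set, 1456036_x_at, rose in M4 minus M1 by 0.92 (adjusted p = 0.0128), which was 0.59 (adjusted p = 0.16) without arrays M4 1 and M4 2 and was lost without M1 1 or M4 2. In Z4 minus Z1 the probe sets differed in sign, with 0.48 for 1416531_at and -0.54 for 1456036_x_at, neither called. By 1456036_x_at Gsto1 rose in Z1 minus WT by 0.88 (adjusted p = 0.0343), a call lost without Z1 1, Z1 2, WT 1 or WT 3.
Theta class enzymes act on small halogenated compounds. Gstt3 read 584, 603.1 and 323.8 in Z4, 257.2, 383.9 and 450 in Z1, 809.4, 1004.5 and 315.3 in M4, 263.7, 189.4 and 182.2 in M1, and 146.2, 177.6 and 127.7 in WT. All 3 WT arrays lay below every array of the other groups. Gstt3 rose against WT by 1.60 in Z4 (SE 0.36, adjusted p = 0.0115), 1.17 in Z1 (SE 0.36, adjusted p = 0.0341) and 1.98 in M4 (SE 0.36, adjusted p = 0.00212), and in M4 minus M1 by 1.54 (SE 0.36, adjusted p = 0.00337). With M4 3 as the only M4 array the M4 changes were 1.00 against WT (adjusted p = 0.0862) and 0.56 against M1 (adjusted p = 0.269). The Z1 call was lost without Z1 2, Z1 3, WT 1 or WT 3 (adjusted p up to 0.113).
Gstt1 went the other way in the Z line. It averaged 1268 ± 237 in Z4, 1859 ± 276 in Z1 and 2017 ± 295 in WT (SD, n = 3 each), and fell by 0.55 in Z4 minus Z1 (adjusted p = 0.0193) and by 0.67 in Z4 minus WT (adjusted p = 0.0191). These groups did not overlap. After quantile normalization neither fall was called. The first was lost without Z1 3 or Z4 3 and the second without Z4 1, Z4 3 or WT 2. Gstt2, Gstk1, a kappa class enzyme of mitochondria and peroxisomes, and Gstz1, which isomerises maleylacetoacetate in tyrosine breakdown, were called in no comparison. Gstk1 averaged 1858 ± 314 in Z4, 2011 ± 478 in Z1, 2476 ± 585 in M4, 2151 ± 134 in M1 and 1741 ± 282 in WT (SD, n = 3 each), and Gstz1 ranged from 1382.6 on array Z4 3 to 2742.4 on array Z1 3.

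Which Ugt members were called, and so the split into rises and falls, depended on the scaling. In Z4 minus Z1 0 members rose and 2 fell, in M4 minus M1 1 rose and 4 fell, in Z4 minus WT 1 rose and 0 fell, and in M4 minus WT 0 rose and 3 fell, beside the shares of all probe sets given above for each. With quantile normalization these were 1 higher and 0 lower, 1 and 3, 3 and 0, and 3 and 2. Ugt2a3, which glucuronidates bile acids, read 1238.6, 1113.7 and 1192.3 in Z4, 2080.5, 1654.7 and 1605.3 in Z1, 1146.5, 965.5 and 742.5 in M4, 1595, 1679.6 and 1810.1 in M1, and 1529.9, 1591 and 1266.5 in WT. Both expressing groups lay below both doxycycline-treated groups and WT on every array. Ugt2a3 fell by 0.58 in Z4 minus Z1 (SE 0.16, adjusted p = 0.0135), 0.84 in M4 minus M1 (SE 0.16, adjusted p = 0.000887) and 0.63 in M4 minus WT (SE 0.16, adjusted p = 0.0139). With M4 3 as the only M4 array the M4 changes were -1.17 and -0.96, both called. The M4 minus M1 fall was called in all 17 settings. The Z4 minus Z1 fall was lost without Z1 1 and after quantile normalization (adjusted p up to 0.162), and the M4 minus WT fall without M4 3 or WT 2.
The Ugt2b enzymes conjugate steroids, bile acids and drugs. Ugt2b1 read 3754, 3998.3 and 4478.5 in Z4, 5268.1, 6422 and 5057.8 in Z1, 2802.7, 1457.6 and 2877.7 in M4, 4724.8, 6126.3 and 5198.7 in M1, and 6032.2, 4904 and 4762 in WT. All M4 arrays lay below all others, M4 2 lowest. Ugt2b1 fell by 1.22 in M4 minus M1 (SE 0.22, adjusted p = 0.00061) and 1.19 in M4 minus WT (SE 0.22, adjusted p = 0.00251), and without arrays M4 1 and M4 2 by 0.88 and 0.85, both called. In Z4 minus Z1 the change was -0.45 (adjusted p = 0.13) and in Z4 minus M4 it was 0.83 (adjusted p = 0.0502).
For Ugt2b38 the M4 arrays split. It read 98.1, 101.9 and 93.4 in Z4, 325, 410.2 and 181.7 in Z1, 44.8, 26.5 and 274.5 in M4, 364, 349.8 and 240.1 in M1, and 248.7, 270.4 and 148 in WT. All Z4 arrays lay below the Z1, M1 and WT arrays, and M4 1 and M4 2, which carried the female-type signals, lay lower still. The summed male-type genes were also lower in Z4, at 14936.5 to 17740.5, than on any Z1, M1 or WT array, of which the lowest was 19578.3. The female-type sum was 1113.8 to 1278.1 in Z4, 349.5 to 2058 in Z1, 868.9 on array M4 3, 289.9 to 405.2 in M1 and 392.7 to 974.5 in WT. The part of these shifts in the Z4 values of Ugt2b38 and Gstp1 was not tested. Ugt2b38 fell by 1.43 in Z4 minus Z1 (SE 0.53, adjusted p = 0.0481) and 1.86 in M4 minus M1 (SE 0.53, adjusted p = 0.0106). With M4 3 as the only M4 array the second was -0.18 (adjusted p = 0.772), and it was also lost without M4 2 alone. The Z4 minus Z1 call was lost in 9 of 15 settings, among them each single Z4 array and Z1 1 or Z1 2 left out (adjusted p up to 0.152).
Ugt2b5 averaged 4180 ± 315 in Z4, 5413 ± 119 in Z1, 3290 ± 635 in M4, 4675 ± 436 in M1 and 4981 ± 480 in WT (SD, n = 3 each). It fell in M4 minus M1 by 0.52 (adjusted p = 0.00986) and in M4 minus WT by 0.61 (adjusted p = 0.00909), and without arrays M4 1 and M4 2 the changes were -0.23 and -0.32, neither called. The M4 minus M1 call was also lost without M4 2 alone, and after quantile normalization neither was called. Ugt2b34 rose in Z4 minus WT by 0.74 (adjusted p = 0.0316) with probe set 1427960_at, at 1879 ± 111 in Z4 against 1164 ± 411 in WT (SD, n = 3 each). That call was lost without any 1 Z4 array, WT 2 or WT 3, and the other Ugt2b34 probe set gave 0.16. Ugt2b37 was called nowhere, with 182.4, 100.7 and 35 on the M4 arrays and at most 112.2 on the others.
The probe set of Ugt2a1 and Ugt2a2, genes known from olfactory tissue, was dim at 3 to 47.1 over all arrays. It rose in M4 minus M1 by 0.94 (adjusted p = 0.00534) and fell in M1 minus WT by 0.76 (adjusted p = 0.0338). With M4 3 as the only M4 array the rise was 0.80 (adjusted p = 0.0889). The fall was lost without M1 2, M1 3 or any 1 WT array, and neither was called after quantile normalization.
The 3 probe sets of the Ugt1a cluster, whose genes share their last exons and include the bilirubin enzyme, were called in no comparison. Probe set 1426260_a_at averaged 5303 ± 128 in Z4, 5726 ± 197 in Z1, 5348 ± 361 in M4, 5681 ± 480 in M1 and 5608 ± 397 in WT (SD, n = 3 each). Its changes were -0.11 in Z4 minus Z1 and -0.09 in M4 minus M1, each with an SE of 0.11. A change in 1 of the cluster's genes could be masked in these shared signals.

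In the Sult family, M4 arrays decided most calls. Sult2a2, a hydroxysteroid and bile acid sulfotransferase, read 16.9, 16.3 and 15.6 in Z4, 4.6, 15.8 and 11 in Z1, 3836.3, 3080.4 and 11.1 in M4, 0.9, 0.8 and 7.2 in M1, and 26.6, 2.9 and 8.7 in WT. Sult3a1, an amine sulfotransferase, read 5.4, 8.5 and 9.6 in Z4, 4.1, 0.3 and 5.5 in Z1, 1933.4, 209.5 and 3.4 in M4, 4.5, 7 and 0.2 in M1, and 5.2, 12.7 and 5.3 in WT. Both were high on arrays M4 1 and M4 2, and the remaining arrays reached at most 26.6 for Sult2a2 and 12.7 for Sult3a1. Sult2a2 rose by 5.19 in M4 minus M1 (SE 1.28, adjusted p = 0.00454) and 4.66 in M4 minus WT (SE 1.28, adjusted p = 0.0186), and Sult3a1 by 3.37 (SE 1.05, adjusted p = 0.017) and 3.12 (SE 1.05, adjusted p = 0.0453). From array M4 3 alone these were 0.53 and 0.00 for Sult2a2, and -0.02 and -0.28 for Sult3a1, none called. The Sult2a2 call against WT was also lost without M4 1, M4 2 or WT 2. The Sult3a1 calls were lost without M1 3 against M1, and against WT without M4 1, M4 2 or any 1 WT array.
Sult1d1, which sulfonates catecholamines, fell on other M4 arrays. Its probe set 1418138_at read 414.8, 508.2 and 348.6 in Z4, 346.6, 388.9 and 452.4 in Z1, 370.1, 48.3 and 12.1 in M4, 449.2, 383.7 and 349.8 in M1, and 451.5, 230.1 and 131 in WT. Arrays M4 2 and M4 3 were the lowest of all 15, while M4 1 lay within the range of the other groups. Sult1d1 fell by 2.20 in M4 minus M1 (SE 0.67, adjusted p = 0.0155) and, by 1448973_at, by 1.78 (SE 0.58, adjusted p = 0.0226). From array M4 3 alone the changes were -3.86 and -3.35, and without M4 2 and M4 3 they were -0.08 and 0.03. Both calls were also lost without M4 2 or M4 3 alone, and that of 1448973_at without any 1 M1 array.

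**Figure D4:**
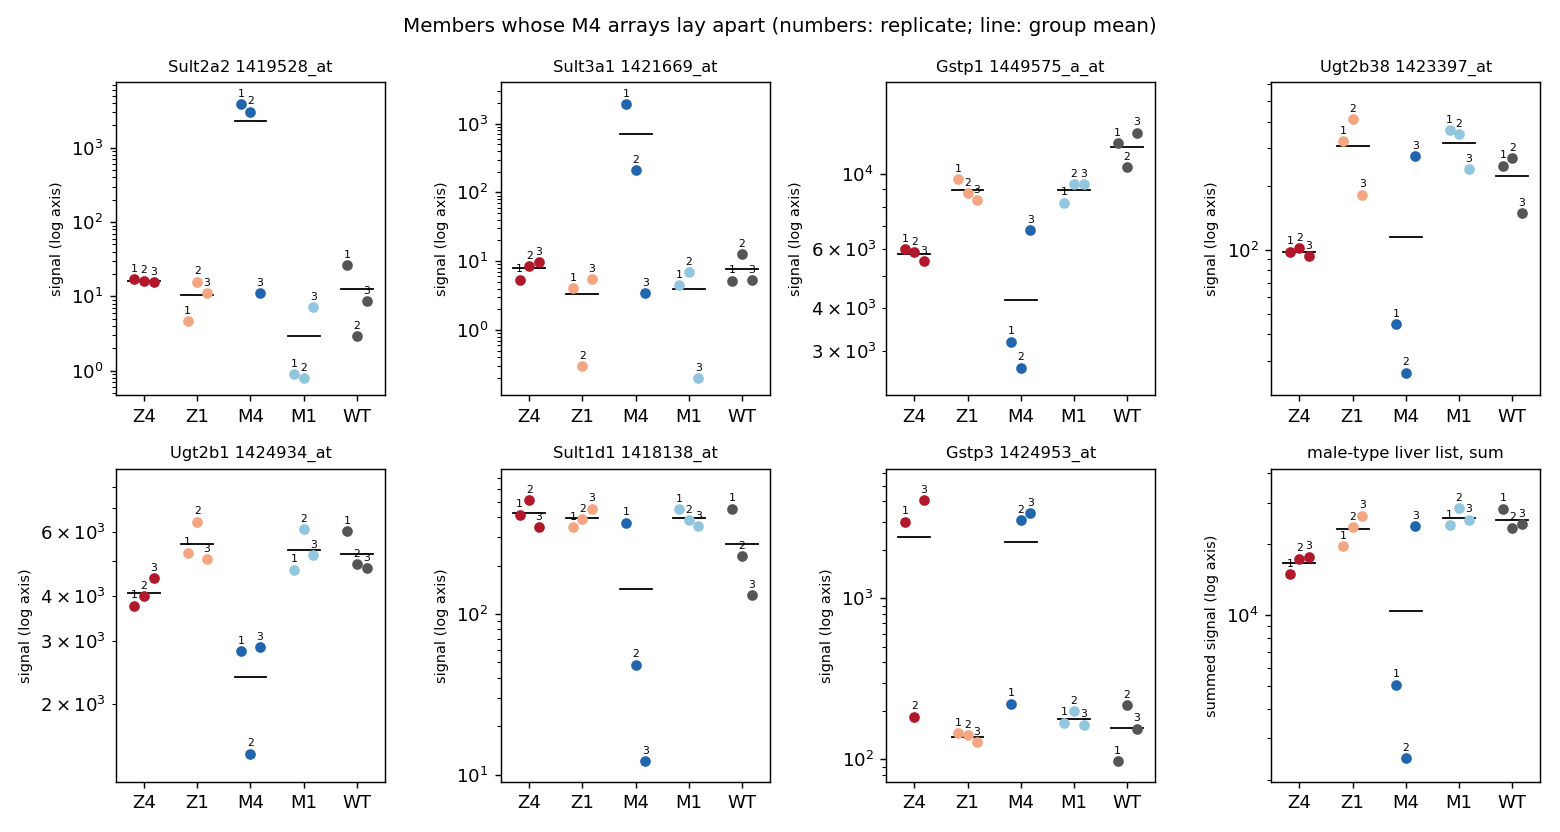
Signal on a log axis for 7 members whose M4 arrays, or Z4 arrays for Gstp3, lay apart, chosen after their values were seen, and the summed signal of 14 male-type liver genes; points are arrays with their replicate number and lines are group means. Arrays M4 1 and M4 2 part from M4 3 in Sult2a2, Sult3a1, Gstp1, Ugt2b38 and the male-type sum, whereas M4 2 and M4 3 part from M4 1 in Sult1d1 and Gstp3.

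Sult2b1, a sulfotransferase of cholesterol and other hydroxysteroids, was dim and rose in both lines. It read 18.8, 22.3 and 24.2 in Z4, 3, 1.9 and 0.7 in Z1, 28.5, 16.6 and 15.8 in M4, 1.3, 3.4 and 4.2 in M1, and 21.4, 11.2 and 2.2 in WT. The expressing groups did not overlap their doxycycline-treated counterparts, and WT spanned both. The changes were 1.08 in Z4 minus Z1 (SE 0.21, adjusted p = 0.00158) and 0.92 in M4 minus M1 (SE 0.21, adjusted p = 0.00302). The first was called in all 14 settings, with changes of 0.38 at a constant of 64 and 3.07 at a constant of 1. From array M4 3 alone the second was 0.75 (adjusted p = 0.0684).
Sult5a1, whose substrates are little known, averaged 227 ± 41.9 in Z4, 332 ± 105 in Z1, 432 ± 82.2 in M4, 226 ± 32.1 in M1 and 289 ± 75.4 in WT (SD, n = 3 each). It rose in M4 minus M1 by 0.88 (SE 0.24, adjusted p = 0.00936), and without arrays M4 1 and M4 2 the change was 0.90 (adjusted p = 0.0641). Sult1c2 rose in M4 minus M1 by 0.59 (adjusted p = 0.0457) and fell in M1 minus WT by 0.70 (adjusted p = 0.0385). From array M4 3 alone the rise was 0.14 (adjusted p = 0.745). It was also lost without M1 1, M1 3, M4 1 or M4 2, and the fall was lost without any 1 M1 array, WT 2 or WT 3. Sult4a1, a brain form, was at most 17.7 on any array. It fell in Z1 minus WT by 0.53 (adjusted p = 0.0348) and in M1 minus WT by 0.54 (adjusted p = 0.0308), with 0.6 to 1.1 on the 6 arrays of Z1 and M1. Both calls were lost after quantile normalization, without any 1 array of Z1 or M1 and without WT 2, and the Z1 call also without WT 1.
Sult1a1, the phenol sulfotransferase, Sult1b1, which acts on thyroid hormone, Sult1c1 and Sult1e1, the estrogen sulfotransferase, were called in no comparison. Sult1a1 averaged 1913 ± 251 in Z4, 2484 ± 734 in Z1, 2169 ± 1006 in M4, 1576 ± 205 in M1 and 1409 ± 160 in WT (SD, n = 3 each), with array M4 3 at 1021.8 the lowest of all. Sult1e1 was at 52.8 on array Z4 2 and at most 7.1 on the other 14 arrays.

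When the on-off changes of the lines were set side by side, 7 members were called in both. These were 7 of the 10 called in Z4 minus Z1 and 7 of the 20 called in M4 minus M1, and all 7 had the same direction. Of all probe sets, 36.0% and 46.5% were called in these comparisons. The share of all probe sets called in both is not given here, so the overlap is not read as particular to the members. The 7 members were Gsta3, Gstm1, Gstm7, Gstp3, Ugt2a3, Ugt2b38 and Sult2b1. Without arrays M4 1 and M4 2 the M4 minus M1 calls of Gsta3, Ugt2b38 and Sult2b1 were lost, as given above. The difference between the on-off changes was tested itself. By limma 0 members were called, where 0.340% of all probe sets were (0.181% higher and 0.159% lower), and 14 members had an unadjusted p under 0.05. The smallest adjusted p belonged to Sult5a1, at -0.48 in Z4 minus Z1 and 0.88 in M4 minus M1 (difference -1.37, SE 0.35, adjusted p = 0.102). Gsto1 (1456036_x_at) had -0.54 and 0.92 (difference -1.46, SE 0.38, adjusted p = 0.111). With arrays M4 1 and M4 2 left out, 2 members passed as higher and 3 as lower, where 6.36% of all probe sets were called. These were both Sult1d1 probe sets, at 3.95 and 3.21, and Gstm1 (1425626_at, -1.57), Gstm1 (1448330_at, -0.92) and Gstm4 (-1.48). They were named after their values were seen, and rest on 1 M4 array.

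**Figure D5:**
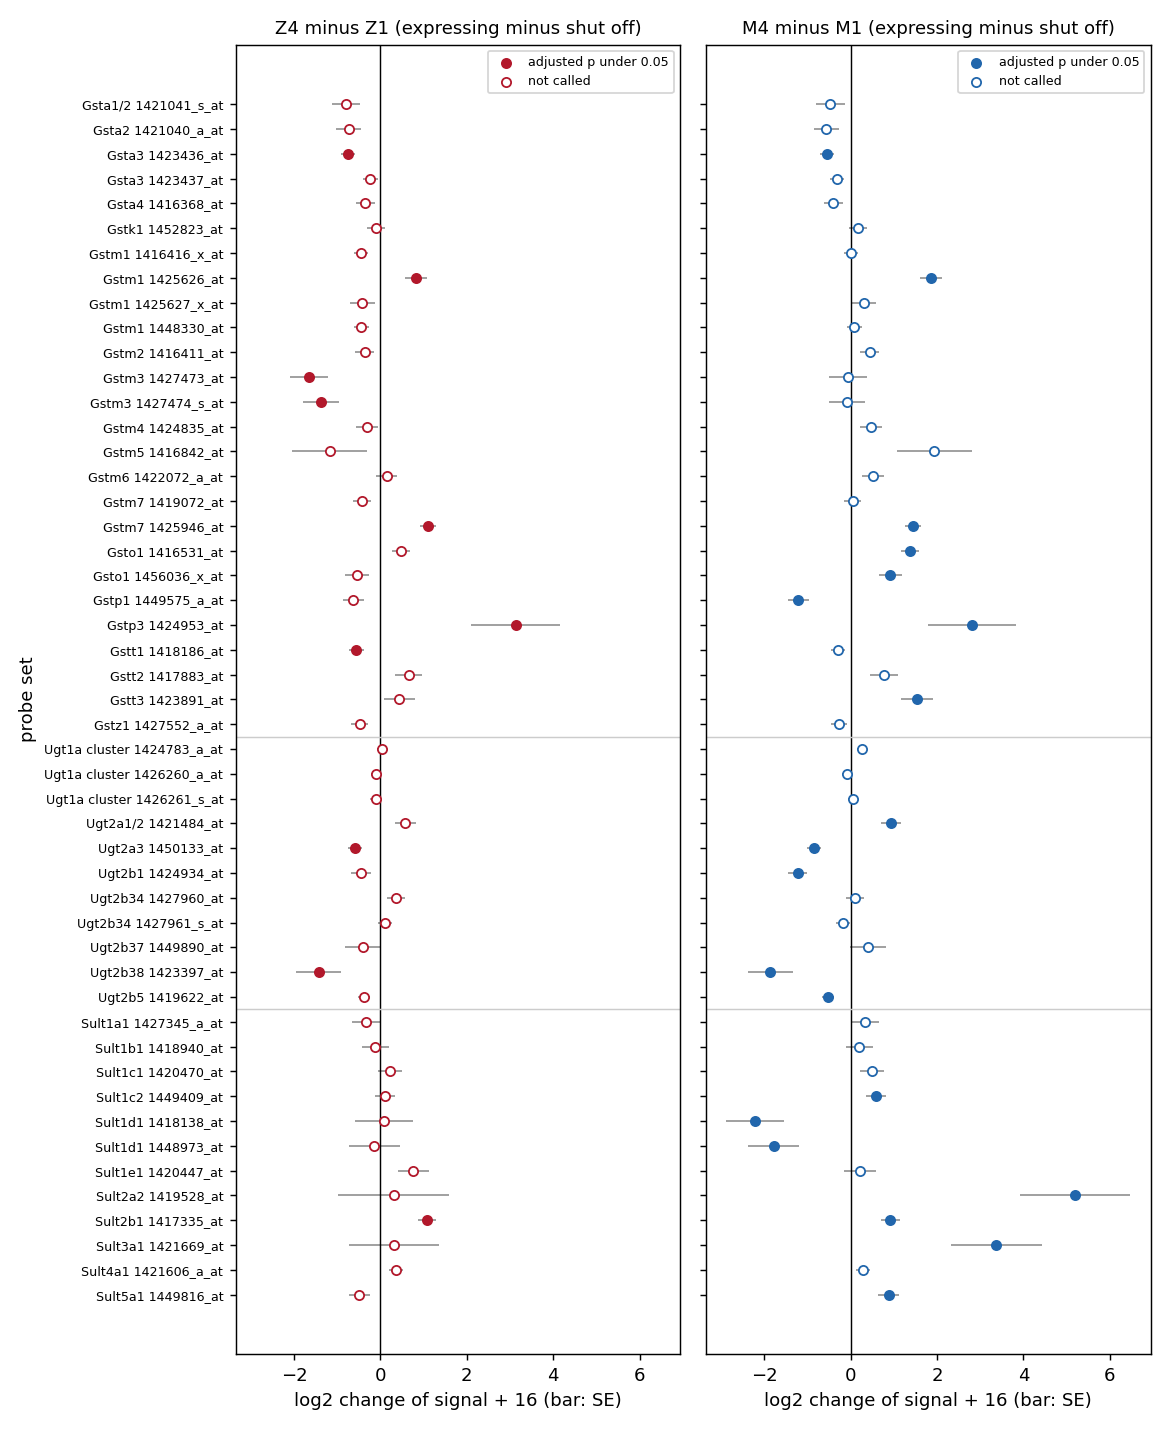
Log2 change of signal + 16 (horizontal axis, bars are SE) for the 49 probe sets in Z4 minus Z1 (left) and M4 minus M1 (right); filled points were called and open points were not. Gstm3 lies at -1.65 and -1.37 on the left and near 0 on the right, and Sult2a2 and Sult3a1 lie above 3 on the right with wide bars.

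Family medians moved with the normalization. The median change of the 26 Gst probe sets in Z4 minus Z1 was -0.42, against 0.21 over all probe sets, and after quantile normalization it was -0.26 against 0.00. The Ugt median in Z4 minus Z1 was -0.11 and turned to 0.07 after quantile normalization, and in M4 minus M1 it was -0.09 and turned to 0.15. The Sult median in Z4 minus Z1 was 0.17 and turned to -0.03.

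The genes that supply and surround these enzymes were taken from 8 lists, of which 86 of 98 genes were measured. In Z4 minus Z1, 24 rose and 9 fell, in M4 minus M1 30 rose and 9 fell, and in Z4 minus M4 6 rose and 2 fell. These shares are set against the 36.0%, 46.5% and 4.47% of all probe sets called. In Z4 minus WT 9 rose and 8 fell, in M4 minus WT 15 rose and 10 fell, in Z1 minus WT 8 rose and 8 fell, and in M1 minus WT 4 rose and 7 fell.
Glutathione supply had 12 measured genes, of which 5 rose and 4 fell in Z4 minus Z1 (3 and 3 after quantile normalization). Gclc, the catalytic subunit of the enzyme that begins glutathione synthesis, read 1435.8, 1325.8 and 1282.5 in Z4, 1620.1, 1910.5 and 1136.3 in Z1, 963, 830 and 999 in M4, 924, 803.5 and 1022.5 in M1, and 715.5, 466.2 and 613.9 in WT. Like Gsta2, Gclc was above WT in all 4 other groups, with rises of 1.17 in Z4 (adjusted p = 0.00205), 1.34 in Z1 (adjusted p = 0.000713), 0.64 in M4 (adjusted p = 0.0286) and 0.62 in M1 (adjusted p = 0.0334). The M4 change on array M4 3 alone was 0.74 (adjusted p = 0.0954), and with quantile normalization the M1 change was not called (adjusted p = 0.103). Slc7a11, the cystine importer, rose in Z4 minus Z1 by 0.95 (adjusted p = 0.000488) and in M4 minus M1 by 0.89 (adjusted p = 0.000487), which was 0.71 on array M4 3 alone. Cbs, which makes cystathionine on the way to cysteine, fell in Z4 minus Z1 by 1.15 (adjusted p = 0.0025).
Of 8 measured genes of UDP-glucuronate supply, 4 rose and 0 fell in Z4 minus Z1, and 4 rose and 1 fell in M4 minus M1. Slc35d1, a carrier of UDP-glucuronate into the endoplasmic reticulum, rose in Z4 minus Z1 by 0.64 (adjusted p = 0.00326) and in M4 minus M1 by 0.43 (adjusted p = 0.0225), or 0.62 on array M4 3 alone. Gulo, the last enzyme of ascorbate synthesis, which starts from glucuronate, rose in M4 minus M1 by 1.15 (adjusted p = 0.000314) and fell in Z4 minus M4 by 0.77 (adjusted p = 0.0388). On array M4 3 alone the Gulo changes were 1.21 and -0.83, the second not called (adjusted p = 0.072). Of 9 PAPS supply genes, 3 rose and 0 fell in Z4 minus Z1, and 4 rose and 2 fell in M4 minus M1. Slc35b2, the carrier of PAPS into the Golgi, rose in Z4 minus Z1 by 0.91 (adjusted p = 0.00242) and in M4 minus M1 by 1.34 (adjusted p = 0.000101). Papss1, a PAPS synthase, rose by 0.70 (adjusted p = 0.0136) and 0.83 (adjusted p = 0.00382) in the same comparisons. On array M4 3 alone the M4 minus M1 changes were 1.54 for Slc35b2 and 0.97 for Papss1, both called. With quantile normalization Papss1 was not called in Z4 minus Z1 (adjusted p = 0.0572).
Among the 14 measured regulators, 5 rose and 1 fell in Z4 minus Z1, and 6 rose and 0 fell in M4 minus M1. Nr1i2, which encodes PXR, rose by 0.98 in Z4 minus Z1 (adjusted p = 0.00451) and 1.33 in M4 minus M1 (adjusted p = 0.000402). Ppara, the fatty acid receptor, rose by 0.90 (adjusted p = 0.00152) and 0.66 (adjusted p = 0.00765). On array M4 3 alone the M4 minus M1 changes were 0.95 for Nr1i2, which was called, and 0.46 for Ppara (adjusted p = 0.17). Nfe2l2, which encodes NRF2, rose in Z4 minus WT by 0.58 (adjusted p = 0.0362), which was 0.56 (adjusted p = 0.0508) after quantile normalization. Of 10 NRF2 targets outside these families, 2 rose and 2 fell in Z4 minus Z1, and 4 rose and 0 fell in M4 minus M1, against 1 and 3, and 2 and 0, after quantile normalization. Akr1b8, an aldo-keto reductase, rose in Z4 minus Z1 by 1.25 (adjusted p = 0.000506), and Osgin1, an oxidative stress gene, fell by 1.84 (adjusted p = 0.00107). Nqo1, a quinone reductase, rose in M4 minus M1 by 1.12 (adjusted p = 0.00118), which was 0.75 (adjusted p = 0.0729) on array M4 3 alone.
Among 7 transporters listed for conjugate export, 2 (Abcc2 and Abcb4) rose and 0 fell in Z4 minus Z1, and 1 (Abcb4) rose and 0 fell in M4 minus M1. Abcc2, the canalicular pump for glutathione, glucuronide and sulfate conjugates, read 606.3, 478.5 and 393 in Z4, 263.7, 296.8 and 124.8 in Z1, 202.4, 275.4 and 210 in M4, 307.9, 346.8 and 344.4 in M1, and 108.4, 112 and 95.4 in WT. Every Z4 array lay above all others. Abcc2 rose by 1.12 in Z4 minus Z1 (adjusted p = 0.00343), 1.04 in Z4 minus M4 (adjusted p = 0.0328) and 2.05 in Z4 minus WT (adjusted p = 0.000384). The Z4 minus M4 change on array M4 3 alone was 1.15 (adjusted p = 0.0684). Abcc2 was also higher than in WT in Z1 (0.93, adjusted p = 0.0177), M4 (1.01, adjusted p = 0.011) and M1 (1.53, adjusted p = 0.0011), and the M4 change was 0.90 (adjusted p = 0.116) on array M4 3 alone. Of 21 other conjugating enzymes, 1 rose and 2 fell in Z4 minus Z1, and 5 rose and 5 fell in M4 minus M1. Mgst1, a membrane-bound glutathione transferase, fell by 0.51 in both (adjusted p = 0.0052 and 0.00384), and Hnmt, the histamine methyltransferase, fell by 1.47 in M4 minus M1 (adjusted p = 0.000285) and rose by 1.70 in Z4 minus M4 (adjusted p = 0.0044). On array M4 3 alone the Hnmt changes were -1.77 and 2.00, both called, and Mgst1 was called in neither comparison after quantile normalization. Of 5 listed deconjugating enzymes, 2 (Ids and Sulf2) rose and 0 fell in each on-off comparison, while Gusb, Arsa and Naglu were called in neither. Sulf2, a sulfatase of heparan sulfate, rose by 0.78 (adjusted p = 0.00919) and 1.27 (adjusted p = 0.000243), the second 1.00 on array M4 3 alone. After quantile normalization 0 of the deconjugating enzymes were called in Z4 minus Z1 (Sulf2 adjusted p = 0.0882) and 1, Sulf2, in M4 minus M1.
Marker genes of cell types were also compared, and their counts are set against the shares of all probe sets called. These shares were 27.9% higher and 8.14% lower in Z4 minus Z1, and 33.2% higher and 13.4% lower in M4 minus M1. Summed over 12 hepatocyte genes, the signal was 61732.9 to 68044 in Z4, 70283.7 to 84893.6 in Z1 and 63761.1 to 73020.8 in M4. It was 68979.9 to 77655.6 in M1 and 100105 to 119786 in WT. Alb, Ttr, Apoa1, Apoa2 and Ahsg were called lower than WT in all 4 other groups, and in none after quantile normalization. Serpinc1 and Pck1 fell in Z4 minus Z1, and only Pck1 was called in M4 minus M1, as higher. Summed over 10 stellate cell and fibroblast genes, the signal was 2003 to 2138.7 in Z4 against 1135.1 to 1473.1 in Z1, and 1420.2 to 2231.7 in M4 against 1483.9 to 1769.6 in M1. Of these genes 6 rose and 0 fell in Z4 minus Z1, and 4 rose and 0 fell in M4 minus M1, and after quantile normalization the counts were 4 and 1, and 2 and 2. Periportal hepatocyte genes, 6 of them measured, summed to 11802.6 to 13383 in Z4 and 14651.1 to 16359.1 in Z1, with 4 fallen and 0 risen, or 2 and 0 after quantile normalization. In M4 they summed to 11582.8 to 12602.8 against 12958.1 to 13098.2 in M1, and only Pck1 was called, as higher. Of 9 pericentral hepatocyte genes, Cyp1a2, Slc1a2, Axin2 and Lgr5 rose in both on-off comparisons and Lhpp in M4 minus M1, and none fell. In Z4 minus Z1 only Cyp1a2 and Lgr5 stayed called after quantile normalization. Kupffer cell genes, 11 of them, summed to 3165.8 to 3702.8 in M4 against 1992.6 to 2058.4 in M1, with 5 risen and 0 fallen (4 and 1 after quantile normalization). In Z4 they summed to 1452.2 to 1872.9 against 1511.2 to 2497.8 in Z1. There C1qa and C1qc fell, also after quantile normalization, and no other Kupffer cell gene was called. Liver endothelial genes, 9 of them, summed to 1152.9 to 1664 in M4 against 839.2 to 920.7 in M1, with 5 risen and 0 fallen (3 and 1 after quantile normalization). Lymphocyte genes, 9 of them, were dim and summed to 168.4 to 197.7 in Z4 against 77.7 to 82 in Z1, and to 245.9 to 259.5 in M4 against 64.2 to 120.1 in M1. Of these genes 3 rose in Z4 minus Z1 and 5 in M4 minus M1, with 0 fallen, or 0 and 2 risen after quantile normalization. Cholangiocyte genes, 8 of them, were also dim. They summed to 146.8 to 196.1 in Z4 against 54.1 to 99.2 in Z1, and to 182 to 196.3 in M4 against 73.7 to 122 in M1. Of these cholangiocyte genes 1, Tspan8, rose and 0 fell in Z4 minus Z1, and 2 rose and 1 fell in M4 minus M1. After quantile normalization the counts were 1 and 1, and 1 and 2. In whole liver, fewer cells of a type and less RNA per cell cannot be told apart, and the part of cell composition in the members' changes was not tested.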

How the data were processed

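Liver RNA of 15 mice was hybridised to 15 arrays, 3 in each of 5 groups, with groups and replicate numbers taken from the labels. The authors deposited linear intensity values between 0 and 22995.4. RMA, with no version, is the only tool named per the submitters' processing notes. The values had a 2% trimmed mean of 150.06 to 150.08 on every array and were unlike RMA output, and the scaling and build are not given in the sources used here. No detection calls were used here.

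The 64 control probe sets were left out. Genes were named from the platform annotation, with 1 symbol for 20380 probe sets, several for 691 and none for 1555. log2(deposited value + 16) was fitted with limma 3.58.1 in R 4.3.3 for 22626 probe sets, with 1 mean per group over all arrays (10 residual and 3.81 prior degrees of freedom). Tests were two-sided, adjusted by Benjamini-Hochberg within each of 9 contrasts. The array number limits the precision. For other genes of the pathway, the brightest probe set per gene was used.

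Named members were, by family and contrast, up to 6 called rises and 6 falls with the largest change, and the 4 genes of highest mean signal per family. The 3 called list genes with the smallest adjusted p per contrast could be named, and those not shown were left out for length. Members and lists were chosen with earlier results of these data known. Alternatives were the compared groups only, probe sets above the 40th percentile of signal, 1 probe set per gene, quantile normalization, array weights, a robust prior with a trend on intensity, constants of 1 and 64, a replicate block, and leaving out each array, M4 1 and 2, or M4 2 and 3. Same-numbered arrays did not deviate together (0 of 30 pairs over 0.1, from -0.197 to 0.0627), and no array columns were identical (0). The fit was tested on simulated data. Python 3.11.15 with matplotlib 3.10.9 drew the figures.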

Additional observations from a re-analysis of the deposited data

How the results depend on the processing

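Of 70 calls of members over 8 contrasts, 16 were made in every one of the 13 to 17 alternative settings run on each, and 54 were lost in at least 1. The direction turned in 3: without arrays M4 1 and M4 2, Sult3a1 was at -0.022 in M4 minus M1 and -0.28 in M4 minus WT, and without arrays M4 2 and M4 3, Sult1d1 (1448973_at) was at 0.033 in M4 minus M1. The causes were not tested. Counts of members that moved by over 1.5 times are given as higher (H) or lower (L). For most of these settings the share of all probe sets called is not given here. The counts are therefore not read as particular to the members. With 1 probe set per gene they were H 2 in Z4 minus Z1, H 1 in Z4 minus M4, H 4 in Z4 minus WT and L 1 in Z1 minus WT, with 35 members tested. With array weights they were L 12 in Z4 minus Z1, H 7 and L 3 in Z4 minus M4, L 8 in M4 minus WT, H 2 in Z1 minus M1, L 7 in M1 minus WT, and H 3 and L 7 in the interaction. With a constant of 1 they were L 0 in Z4 minus M4 and H 6 in M4 minus WT, and with 64 H 1 in Z4 minus M4, L 1 in Z1 minus WT and L 2 in M1 minus WT. With the compared groups only they were H 7 in Z4 minus Z1, L 5 in M4 minus M1, L 0 in Z4 minus M4, H 3 in Z4 minus WT, H 3 and L 1 in M4 minus WT, H 11 and L 1 in Z1 minus WT, and H 5 and L 2 in M1 minus WT. With an intensity trend and robust spread they were L 10 in Z4 minus Z1, and H 1 and L 2 in Z4 minus M4. Above the 40th percentile, with 44 members, they were H 3 and L 3 in Z4 minus M4 and L 1 in Z1 minus WT. After quantile normalization they were L 3 in Z4 minus Z1, H 1 and L 2 in Z4 minus M4, and L 0 in Z4, Z1 and M1 minus WT, and pathway genes had L 3 in Z1 minus WT and L 2 in M1 minus WT. Without arrays M4 1 and M4 2 they were H 7 and L 4 in M4 minus M1, H 4 and L 2 in Z4 minus M4, H 6 in M4 minus WT, and H 2 and L 3 in the interaction, and pathway genes had H 17, L 1, H 7, and H 5 and L 1 in these 4. Without arrays M4 2 and M4 3 they were L 2 in Z4 minus M4, H 5 in M4 minus WT and L 2 in the interaction. With single arrays left out, counts ranged over H 0 to 2 and L 0 to 4 in the interaction, H 2 to 4 and L 3 to 9 in Z4 minus Z1, L 4 to 9 in M4 minus M1, H 0 to 4 and L 0 to 2 in Z4 minus M4, H 3 to 6 and L 0 to 3 in Z4 minus WT, H 4 to 10 and L 3 to 7 in M4 minus WT, L 0 to 3 in Z1 minus WT, and H 1 to 3 and L 1 to 4 in M1 minus WT. The replicate numbers do not pair the mice, and with the replicate block 5 members were higher and 6 lower in Z4 minus Z1, 12 and 8 in M4 minus M1, 6 and 2 in Z4 minus WT, and 9 and 4 in M4 minus WT. With 3 arrays a group and no detection calls, changes of members under a signal of about 16 depend on the constant.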
